A study of Penicillium oxalicum with 18 samples.

Results

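The transcription levels of 6 ubiquitin ligase genes of the filamentous fungus Penicillium oxalicum were examined in every strain and medium of the transcriptome. The genes were chosen by name from the 9230 genes of the table, with earlier results of these data known. They are fbx23 (PDE_08467), which encodes the F-box protein studied here, skp1 (PDE_02249), cul1 (PDE_00128) and rbx1 (PDE_02289), which encode the other subunits of the SCF complex, and the ubiquitin ligase related genes mub1 (PDE_05666) and bre1 (PDE_03581). All 6 were found in the table. The data comprise 18 libraries of mycelial RNA in 6 groups of 3 replicates, from 3 strains in 2 media. Refbx23 is the strain in which fbx23, from its upstream region to its terminator, was put back into Δfbx23 with the pyrithiamine resistance marker ptrA. Δfbx23 is the strain 114-2 with fbx23 replaced by the hygromycin resistance marker hph. The WT is the strain 114-2 itself. Per the study, diagnostic PCR of Refbx23 joined ptrA to both flanks of the fbx23 locus. The study lists the genotype of Refbx23 as Δfbx23::hph fbx23::ptrA, which names hph. Whether hph was still present once ptrA had joined both flanks was not spelled out. How many transformants stand behind each mutant strain was not given in the sources used here. VMMC is the inducing medium, with 1% bran and 1% microcrystalline cellulose per the labels, and VMMG is the repressing medium with 2% glucose. All strains were precultured in glucose for 24 h at 30 °C and, per the labels, grown for 18 h after transfer.

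SCF complexes are modular E3 ubiquitin ligases. The cullin Cul1 is the scaffold, the RING protein Rbx1 at one end recruits the ubiquitin-conjugating enzyme, and the adaptor Skp1 at the other end holds an F-box protein, which binds the substrate. F-box proteins are exchangeable, whereas Skp1, Cul1 and Rbx1 are shared by all SCF complexes of a cell. In Saccharomyces cerevisiae, Mub1 works with the ligase Ubr2 on a transcription factor of proteasome genes, and Bre1 is a RING ligase that ubiquitinates a histone. The question put to the transcriptome here is how the genes of the complex are transcribed when fbx23 is deleted, put back, or when the carbon source changes.

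The level of a gene was given in FPKM, fragments scaled by transcript length and by the mapped fragments of the library, which allows levels of different genes to be set side by side if the libraries were RNA-Seq, as the paper says. The labels describe tag-based libraries, for which the length scaling, and with it the order of the genes and the size of their ratios, would not hold in the same way. Comparisons of 1 gene between groups do not rest on it. Each library had 8385 to 8648 genes above 0 FPKM, and the FPKM sums of the libraries ranged from 781397 to 954142. The number of fragments per library is unknown, and no counting limit could be given for a value of 0. Each library pools whole mycelia, so that fewer hyphae of a kind and less transcript per hypha cannot be told apart. The study calls the WT and Δfbx23 libraries biological triplicates, and for Refbx23 the sources used here do not say whether each library was a separate culture, so the p-values that involve Refbx23 measure only the spread between these samples, which may be technical.

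The targeted gene was examined first. The FPKM of fbx23 was listed at 0 in all 3 Δfbx23 libraries of each medium. In VMMC it was 58.5, 67.0 and 56.9 FPKM in the Refbx23 libraries and 58.9, 66.8 and 60.2 FPKM in the WT libraries. In VMMG it was 65.8, 64.4 and 74.9 FPKM in Refbx23 and 76.85, 73.0 and 70.1 FPKM in the WT. The labels of the deletion strain were thus borne out, and the Refbx23 and WT libraries overlapped in both media. The difference between Refbx23 and the WT was -0.03 on the log2(FPKM + 1) scale in VMMC (SE 0.08, 95% interval -0.22 to 0.17, limma adjusted p = 0.788). In VMMG it was -0.10 (SE 0.10, 95% interval -0.33 to 0.13, limma adjusted p = 0.419). Across the whole table, 2 genes were at 0 in every Δfbx23 library and at 1 FPKM or more in every WT library. One was fbx23, and the other, PDE_00836, was also at 0 in all Refbx23 libraries.

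The 6 genes differed widely in level. The adaptor gene skp1 was the highest of them in every group, with group means from 140.4 FPKM in Δfbx23 in VMMG to 447 FPKM in the WT in VMMC. The WT mean of skp1 in VMMC stood above 97.1% of all genes. The scaffold gene cul1 had group means from 46.8 to 98.2 FPKM, and the RING subunit gene rbx1 from 61.8 to 108 FPKM. The libraries of rbx1 and cul1 overlapped in Refbx23 in both media and in the WT in VMMC, so that no order of these neighbours could be given there. In the WT in VMMG, rbx1 with 80.6 ± 9.22 FPKM and fbx23 with 73.3 ± 3.39 FPKM also overlapped (SD, n = 3). The histone ligase gene bre1 was lower than the SCF core genes and varied least of the 4 tested genes, from 21.7 to 34.4 FPKM over all libraries.

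The gene mub1 was near the lower limit of the table. Its FPKM was 0.08, 0.12 and 0.18 in Refbx23, 0.08, 0.08 and 0.21 in Δfbx23 and 0.04, 0.34 and 0.31 in the WT in VMMC. In VMMG it was 0.04 in each Refbx23 library, 0.09 in each Δfbx23 library and 0, 0.09 and 0.09 in the WT. The table is given with 2 decimals and the smallest value of mub1 above 0 was 0.04 FPKM. The number of fragments behind such values is unknown, and mub1 did not reach the mean of 1 FPKM required for the test in any comparison. No fold change is given for it.

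**Figure D1:**
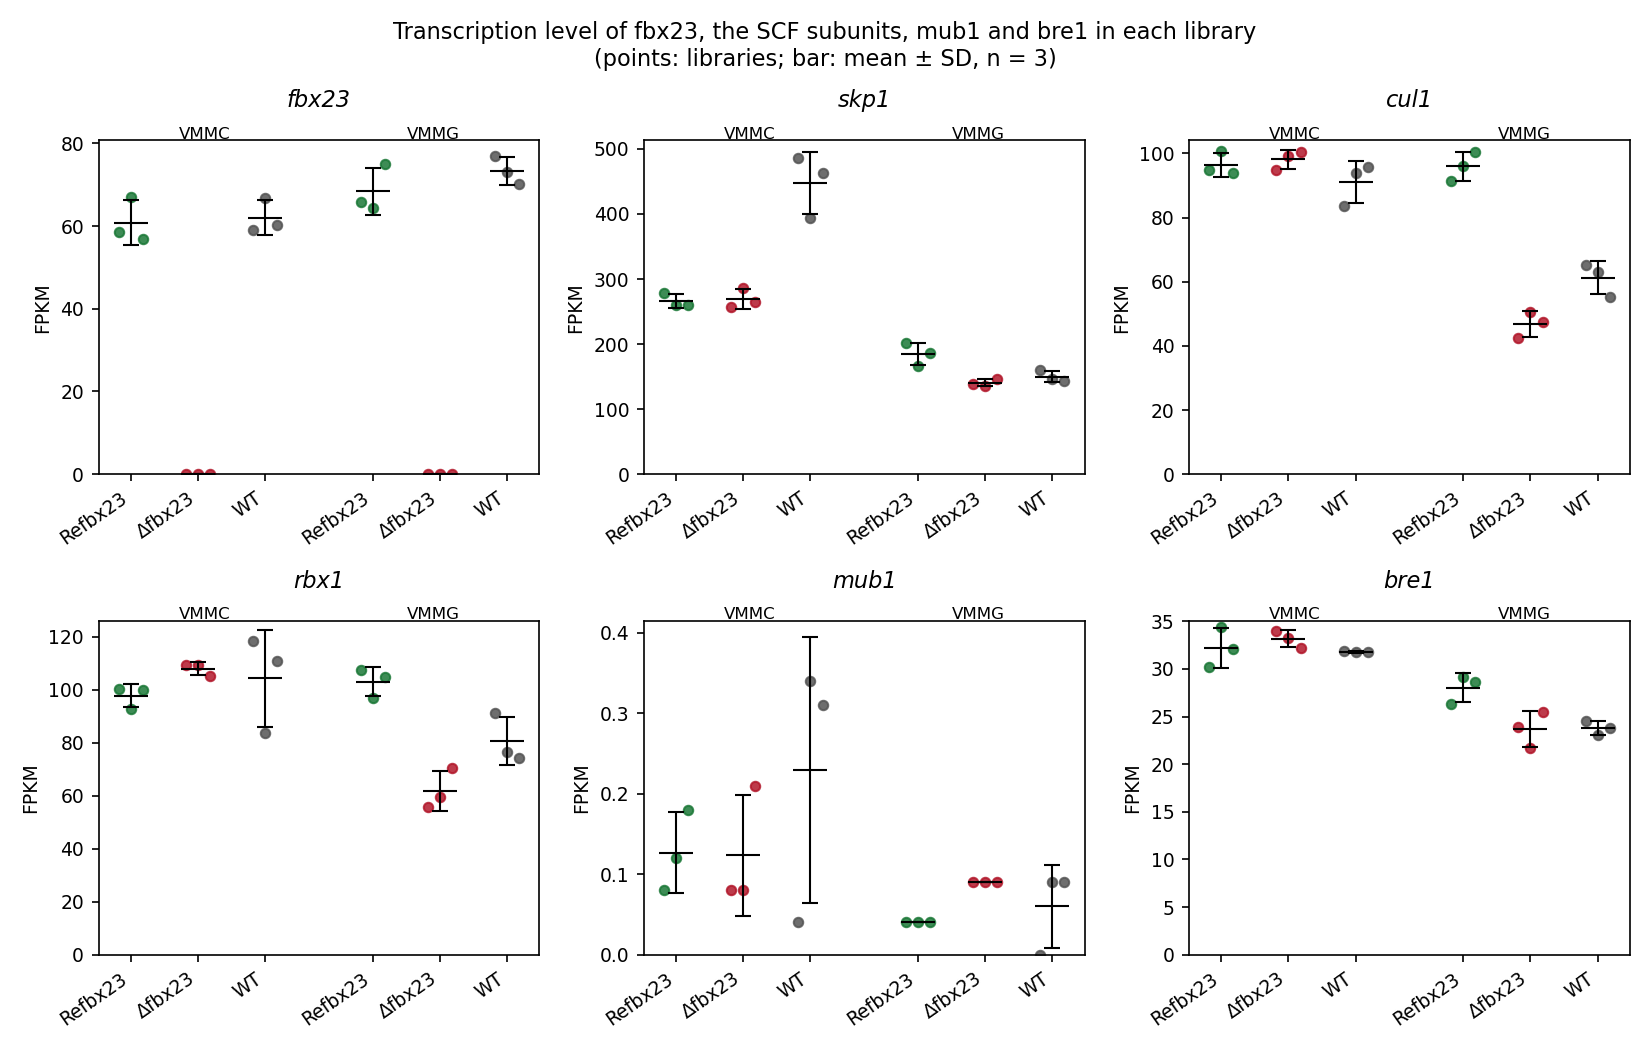
FPKM of each of the 6 genes (vertical axis, separate scale per panel) in Refbx23, Δfbx23 and the WT in VMMC (left) and VMMG (right); points are libraries and bars the mean ± SD of 3 libraries. The skp1 panel shows the WT libraries in VMMC at 394 to 486 FPKM, above all libraries of both mutant strains, while fbx23 lies at 0 in Δfbx23 and at WT-like levels in Refbx23.

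To compare strains in the same medium, limma was run on log2(FPKM + 1) over all genes that averaged 1 FPKM or more across the 6 libraries. A gene passed at a Benjamini-Hochberg adjusted p under 0.05 over all genes tested, and was called changed where it also differed by at least 2-fold, the thresholds of the study. Apart from fbx23, 4 of the 5 genes could be tested in every comparison. The comparisons of Refbx23 and of Δfbx23 with the WT share the WT libraries, so their values are given side by side and not as independent results.

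In VMMC, skp1 was lower in both mutant strains than in the WT, and the other 3 genes did not pass. The FPKM of skp1 was 278, 259.5 and 261 in the Refbx23 libraries, 257, 287 and 265 in the Δfbx23 libraries, and 486, 394 and 462 in the WT libraries. All libraries of both mutant strains were below all WT libraries, and the mutant strains overlapped each other. In Δfbx23 the mean was 0.602 of the WT mean, a log2 fold change of -0.73 (limma adjusted p = 0.000803, SE 0.10). In Refbx23 it was 0.595 of the WT mean, a log2 fold change of -0.74 (limma adjusted p = 0.000188, SE 0.09). These were changes of less than 2-fold. The exact permutation test gave p = 0.1 in each case, the smallest that 3 libraries against 3 allow. The call was kept for skp1 in both comparisons under all 14 alternatives, including each library left out.

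Put directly against each other in VMMC, Refbx23 and Δfbx23 showed no difference that passed in any of the 4 genes. Their difference for skp1 was -0.02 on the log2 scale (SE 0.07, 95% interval -0.17 to 0.14, limma adjusted p = 0.903), although fbx23 itself stood at 60.8 ± 5.42 FPKM (SD, n = 3) in Refbx23 and was listed at 0 in Δfbx23. With limma, 0 of the 4 genes passed and 1, rbx1, had an unadjusted p under 0.05. The FPKM of rbx1 was 100.4, 92.8 and 100.02 in Refbx23 and 109, 109 and 105 in Δfbx23 in VMMC, a log2 fold change of -0.14 (limma adjusted p = 0.162, SE 0.06), and these libraries did not overlap. Of all 7894 genes tested, 15.1% passed in this comparison. By the exact permutation test, none of the 4 genes could go below p = 0.1.

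The share of all genes that passed was large in the comparisons with the WT in VMMC. It was 50.7% of 8006 genes for Δfbx23 and 61.8% of 8012 genes for Refbx23, with 28.2% and 31.3% passing as lower, and 1 of the 4 genes is below the shares for both directions. The drop of skp1 in Δfbx23 was larger in size than the change of 77.1% of the genes tested, and that in Refbx23 was larger than the change of 79.0% of them. At the threshold of 2-fold as well, 14.4% and 12.7% of all genes were called changed, and none of the members.

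The cullin and RING genes had steady levels in VMMC. The FPKM of cul1 was 94.75, 101 and 93.8 in Refbx23, 94.9, 99.1 and 101 in Δfbx23, and 83.7, 94.0 and 95.8 in the WT. The libraries of all 3 strains overlapped. For Δfbx23 against the WT the log2 fold change of cul1 was 0.11 (95% interval -0.08 to 0.30, limma adjusted p = 0.300). The FPKM of rbx1 in the WT in VMMC was 118, 83.6 and 111, the widest spread of any group for this gene, and all libraries of both mutant strains lay within that range. The log2 fold change of rbx1 was 0.06 in Δfbx23 (95% interval -0.24 to 0.36, limma adjusted p = 0.707) and -0.08 in Refbx23 (95% interval -0.36 to 0.21, limma adjusted p = 0.604). Without replicate 2 of the WT in VMMC, which has the low value of 83.6 FPKM, the log2 fold change of rbx1 in Refbx23 was -0.23 and passed (limma adjusted p = 0.0308).

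The FPKM of bre1 in VMMC was 30.2, 34.4 and 32.1 in Refbx23, 34.0, 33.2 and 32.2 in Δfbx23, and 31.9, 31.7 and 31.8 in the WT. The WT libraries were almost equal, and the Δfbx23 libraries were just above them. The log2 fold change was 0.06 in Δfbx23 (95% interval -0.10 to 0.22, limma adjusted p = 0.517) and 0.02 in Refbx23 (95% interval -0.14 to 0.18, limma adjusted p = 0.849).

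In VMMG, cul1, rbx1 and skp1 were each higher in Refbx23 than in Δfbx23, and cul1 and rbx1 were also higher in Refbx23 than in the WT. The FPKM of cul1 was 91.5, 95.9 and 100.4 in Refbx23, 42.5, 50.5 and 47.4 in Δfbx23, and 65.2, 63.1 and 55.4 in the WT. None of the 3 groups overlapped. For Refbx23 against the WT the ratio of the means was 1.57, with a log2 fold change of 0.64 (limma adjusted p = 0.00286, SE 0.10). For Refbx23 against Δfbx23 the ratio was 2.05, with a log2 fold change of 1.02 (limma adjusted p = 0.000158, SE 0.09). This was the only strain comparison in which any of the 4 tested genes reached 2-fold, and the log2 fold change ran from 0.96 to 1.08 over the 14 alternatives, so the 2-fold mark was not held in all of them.

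In VMMG, cul1 of Δfbx23 was at 0.764 of the WT mean, with a log2 fold change of -0.38 (limma adjusted p = 0.0453, SE 0.11). This call rested on the setting: it was lost under 8 of 14 alternatives, with adjusted p from 0.00169 to 0.151. These included the separate omission of each Δfbx23 library and of WT replicates 1 and 2, with values from -0.31 to -0.44.

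The FPKM of rbx1 in VMMG was 107, 96.85 and 105 in Refbx23, 55.65, 59.4 and 70.3 in Δfbx23, and 91.2, 76.7 and 74.0 in the WT. As for cul1, none of the 3 groups overlapped. For Refbx23 against Δfbx23 the log2 fold change was 0.73 (limma adjusted p = 0.00131, SE 0.11), and the call was kept under all 14 alternatives. Between Refbx23 and the WT it was 0.35 (limma adjusted p = 0.0385, SE 0.11), a call that was lost when any Refbx23 library or either of WT replicates 2 and 3 was left out, with values of 0.30 to 0.40. Between Δfbx23 and the WT it was -0.38 (SE 0.13, 95% interval -0.69 to -0.07) and did not pass (limma adjusted p = 0.0777).

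The FPKM of skp1 in VMMG was 201, 167 and 187 in Refbx23, 139, 136 and 146 in Δfbx23, and 160.1, 146 and 144 in the WT. The Refbx23 libraries were above all others, while Δfbx23 and the WT overlapped. The log2 fold change was 0.39 for Refbx23 against Δfbx23 (limma adjusted p = 0.00955, SE 0.09). It was 0.30 for Refbx23 against the WT (limma adjusted p = 0.0575, SE 0.10) and -0.09 for Δfbx23 against the WT (95% interval -0.30 to 0.11, limma adjusted p = 0.465).

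The FPKM of bre1 in VMMG was 26.4, 29.2 and 28.6 in Refbx23, 23.9, 21.7 and 25.5 in Δfbx23, and 24.6, 23.1 and 23.8 in the WT. The Refbx23 libraries were again the highest. The log2 fold change of bre1 was 0.23 for Refbx23 against Δfbx23 (limma adjusted p = 0.0671, SE 0.09) and 0.23 for Refbx23 against the WT (limma adjusted p = 0.0742, SE 0.09), and neither passed. For Δfbx23 against the WT it was -0.01 (95% interval -0.23 to 0.22), of which median-ratio scaling turned the sign to 0.05.

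In all, 3 of the 4 tested genes passed for Refbx23 against Δfbx23 in VMMG, all of them higher, where 57.4% of 7782 genes passed and 31.7% passed as higher. Between Refbx23 and the WT it was 2 of 4, also higher, where 45.2% of 7795 genes passed and 24.1% as higher. Between Δfbx23 and the WT it was 1 of 4, lower, where 25.3% of 7691 genes passed and 14.3% as lower. At 2-fold as well the shares of all genes were 21.8%, 18.3% and 11.8% in these comparisons. With only 4 genes, skp1, cul1, rbx1 and bre1, these counts do not set the tested genes apart from the rest of the table. The median log2 fold change of the 4 genes was 0.56, 0.33 and -0.24 in these 3 comparisons, beside 0.06, 0.01 and -0.07 for all genes tested.

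**Figure D2:**
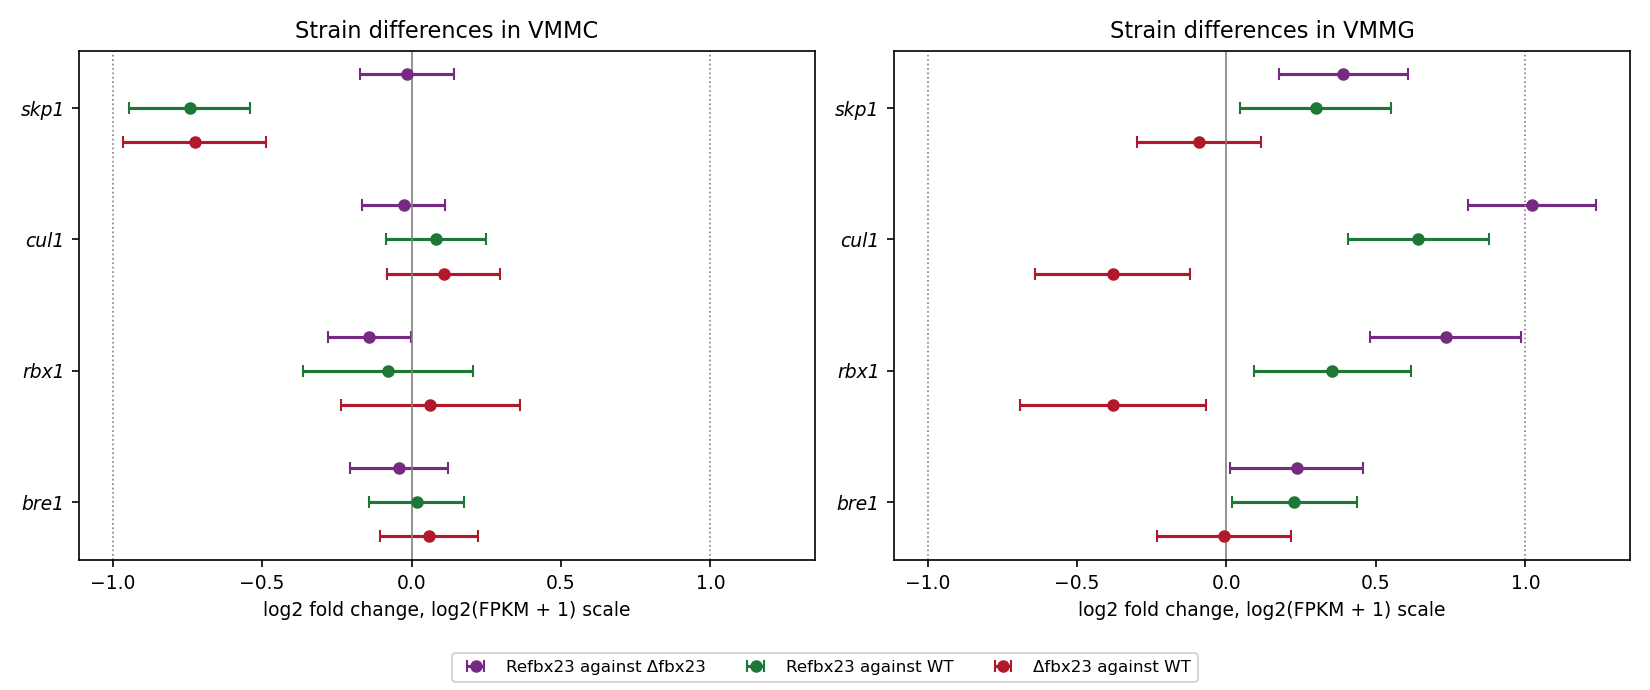
Log2 fold changes on the log2(FPKM + 1) scale (horizontal axis) of skp1, cul1, rbx1 and bre1 between strains in VMMC (left) and VMMG (right); points are limma estimates, bars their 95% intervals, and dotted lines mark a 2-fold difference. In VMMC skp1 lies at -0.74 and -0.73 against the WT in both mutant strains, and in VMMG cul1 reaches 1.02 for Refbx23 against Δfbx23.

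Between the media, skp1 rose in VMMC in each strain, and which of the other genes passed varied. In the WT, skp1 had a mean of 447 ± 47.5 FPKM in VMMC and 149.9 ± 8.81 FPKM in VMMG (SD, n = 3), a ratio of 2.98. Its log2 fold change was 1.57 (limma adjusted p = 2.66e-05, SE 0.12). In Δfbx23 the means were 269 ± 15.6 FPKM in VMMC and 140.4 ± 5.36 FPKM in VMMG, a ratio of 1.92 and a log2 fold change of 0.93 (limma adjusted p = 5.01e-05, SE 0.08, n = 3 each). In Refbx23 they were 266 ± 10.5 FPKM in VMMC and 185 ± 17.3 FPKM in VMMG, a ratio of 1.44 and a log2 fold change of 0.53 (limma adjusted p = 0.00114, SE 0.08, n = 3 each). In all 3 strains each VMMC library was above each VMMG library.

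The response of skp1 to the medium differed between strains. The interaction of strain and medium, fitted over 12 libraries, was -0.63 on the log2 scale for Δfbx23 against the WT (limma adjusted p = 0.00291, SE 0.13). For Refbx23 against the WT it was -1.04 (limma adjusted p = 9.6e-05, SE 0.14). In the first of these fits 42.8% of 8062 genes passed, 21.7% as lower and 21.1% as higher, and in the second 57% of 8072 genes, 30.8% as lower. Both values kept their sign and their call under all 20 alternatives run for each.

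The scaffold gene cul1 behaved differently from skp1. In Δfbx23 it rose in VMMC, with means of 98.2 ± 2.95 FPKM in VMMC and 46.8 ± 4.03 FPKM in VMMG (SD, n = 3), a ratio of 2.098 and a log2 fold change of 1.06 (limma adjusted p = 5.16e-05, SE 0.09). In the WT it rose less, with 91.2 ± 6.54 FPKM in VMMC and 61.2 ± 5.16 FPKM in VMMG (SD, n = 3), and its log2 fold change was 0.57 (limma adjusted p = 0.00242, SE 0.11). In Refbx23 the libraries of the media overlapped, with 96.4 ± 3.70 FPKM in VMMC and 95.95 ± 4.47 FPKM in VMMG (SD, n = 3), and the log2 fold change was 0.01 (95% interval -0.15 to 0.16, limma adjusted p = 0.936). The interaction for cul1 was 0.49 for Δfbx23 against the WT (limma adjusted p = 0.0117, SE 0.13) and -0.56 for Refbx23 against the WT (limma adjusted p = 0.00209, SE 0.12). The levels of cul1 in VMMC differed little, and the groups that differed were those in VMMG.

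The log2 fold change of rbx1 between the media was 0.80 in Δfbx23 (limma adjusted p = 0.000384, SE 0.10), -0.07 in Refbx23 (95% interval -0.23 to 0.09, limma adjusted p = 0.376) and 0.36 in the WT (limma adjusted p = 0.0791, SE 0.16). The VMMC and VMMG libraries of the WT overlapped for this gene. The interaction was 0.44 for Δfbx23 (limma adjusted p = 0.0871, SE 0.19) and -0.43 for Refbx23 (limma adjusted p = 0.0583, SE 0.18) against the WT, and neither passed. The order of the strains was thus the same as for cul1, but not past the threshold.

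The gene bre1 rose moderately in VMMC in Δfbx23 and in the WT. Its log2 fold change was 0.47 in Δfbx23 (limma adjusted p = 0.0024, SE 0.09) and 0.40 in the WT (limma adjusted p = 0.00347, SE 0.08). In Refbx23 it was 0.19 (limma adjusted p = 0.0676, SE 0.08) and did not pass. No interaction passed for bre1, with values of 0.07 for Δfbx23 against the WT (95% interval -0.17 to 0.30) and -0.21 for Refbx23 against the WT (95% interval -0.44 to 0.02).

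For fbx23, in the WT the VMMC libraries, at 58.9 to 66.8 FPKM, were all below the VMMG libraries, at 70.1 to 76.85 FPKM, with a log2 fold change of -0.24 (limma adjusted p = 0.0515, SE 0.09). This was just outside the threshold, and the gene passed under 7 of 14 alternatives, median-ratio scaling with a log2 fold change of -0.40 among them. In Refbx23 the libraries of the media overlapped, and the log2 fold change was -0.17 (limma adjusted p = 0.155, SE 0.09). The interaction for fbx23 between Refbx23 and the WT was 0.07 (95% interval -0.21 to 0.36, limma adjusted p = 0.647).

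Counted together, all 4 tested genes rose in VMMC in Δfbx23, 1 of 4 in Refbx23 and 3 of 4 in the WT, and none fell. The shares of all genes that rose were 42.6% of 7911 genes in Δfbx23, 34.8% of 7958 genes in Refbx23 and 41.2% of 8053 genes in the WT. With falling genes added, the shares that passed were 70.2%, 62% and 72.2%. At 2-fold as well, cul1 was called changed in Δfbx23, with 32.8% of all genes, and skp1 in the WT, with 41.2% of all genes. The interaction of skp1 for Refbx23 also exceeded 2-fold, as did 28.9% of all genes in that fit. Median-ratio scaling moved the median log2 fold change of all genes to 0.00 in Δfbx23, against 0.18 as deposited, and to -0.02 in the WT, against 0.13 as deposited. In Δfbx23 the rising genes then made up 49.9% of the genes that passed, against 60.7% without scaling. With this scaling the log2 fold change was 0.75 for skp1, 0.87 for cul1, 0.62 for rbx1 and 0.29 for bre1 in Δfbx23, and 1.41 for skp1, 0.41 for cul1 and 0.25 for bre1 in the WT, and all of these still passed, although cul1 in Δfbx23 was then under 2-fold. For cul1 in Refbx23 it was -0.06 with this scaling.

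**Figure D3:**
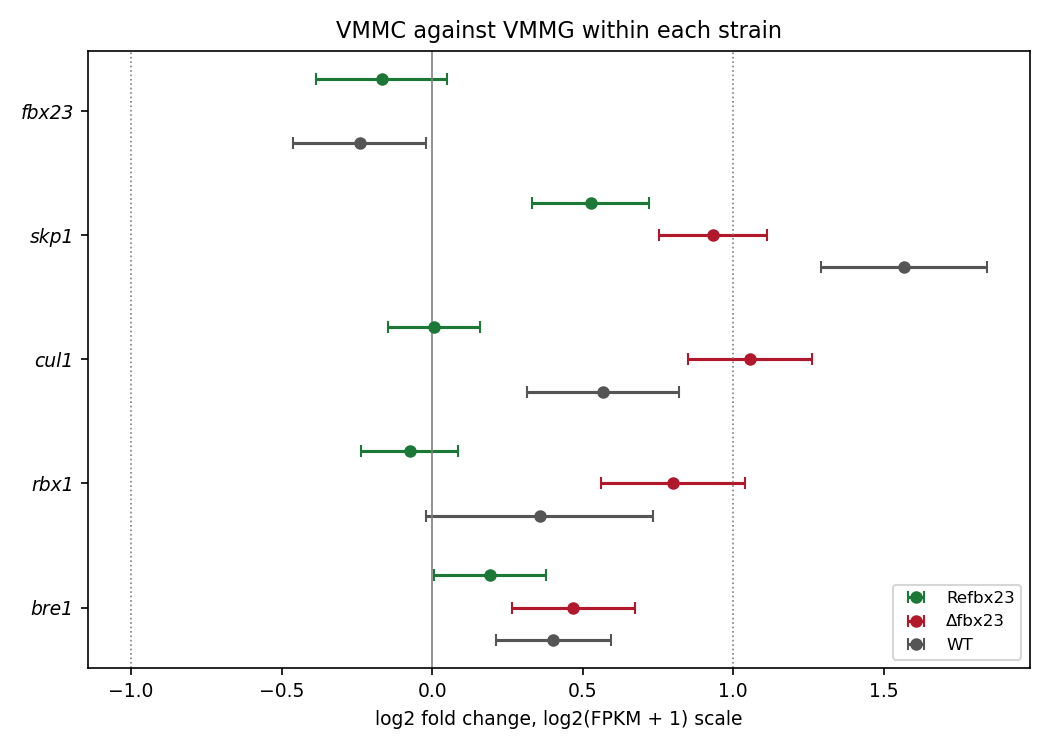
Log2 fold change of VMMC against VMMG on the log2(FPKM + 1) scale (horizontal axis) for fbx23, skp1, cul1, rbx1 and bre1 in Refbx23, Δfbx23 and the WT; points are limma estimates, bars their 95% intervals, and dotted lines mark a 2-fold difference. For skp1 the values are 0.53 in Refbx23, 0.93 in Δfbx23 and 1.57 in the WT, whereas for cul1 they are 0.01, 1.06 and 0.57.

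The subunits of one complex were also compared with each other within a library, by ratios that do not depend on how the libraries were scaled. In VMMC, cul1 stood at 0.363 ± 0.0237 of skp1 in Refbx23, 0.365 ± 0.0178 in Δfbx23 and 0.206 ± 0.0331 in the WT (SD, n = 3). The ratio of rbx1 to skp1 in VMMC was 0.367 ± 0.0142 in Refbx23, 0.401 ± 0.0231 in Δfbx23 and 0.232 ± 0.0172 in the WT (SD, n = 3). For both ratios, all libraries of both mutant strains were above all WT libraries. The ratio of rbx1 to cul1 in VMMC was 1.02 ± 0.0812 in Refbx23, 1.10 ± 0.0545 in Δfbx23 and 1.15 ± 0.262 in the WT (SD, n = 3), and these libraries overlapped. In VMMC the ratios that separated the mutant strains from the WT were thus those with skp1.

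In VMMG the ratio of cul1 to skp1 was 0.522 ± 0.0618 in Refbx23, 0.334 ± 0.0345 in Δfbx23 and 0.408 ± 0.0241 in the WT (SD, n = 3). None of the 3 strains overlapped. The ratio of rbx1 to cul1 was 1.07 ± 0.0867 in Refbx23, 1.32 ± 0.154 in Δfbx23 and 1.32 ± 0.0932 in the WT (SD, n = 3). Here Δfbx23 and the WT overlapped, and the Refbx23 libraries were below both.

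The ratio of fbx23 to skp1 was 0.229 ± 0.0257 in Refbx23 and 0.140 ± 0.0256 in the WT in VMMC (SD, n = 3). In VMMG it was 0.371 ± 0.0396 in Refbx23 and 0.489 ± 0.0107 in the WT (SD, n = 3). The Refbx23 libraries were thus all above the WT libraries in VMMC and all below them in VMMG, although the level of fbx23 itself overlapped between these strains in both media. Over 44 ratio comparisons, 28 had groups that did not overlap, and the smallest exact permutation p was 0.1, so that none could pass. No share over other gene pairs was computed, and the comparisons reuse the same libraries and genes. The count of groups that did not overlap is therefore a description only.

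**Figure D4:**
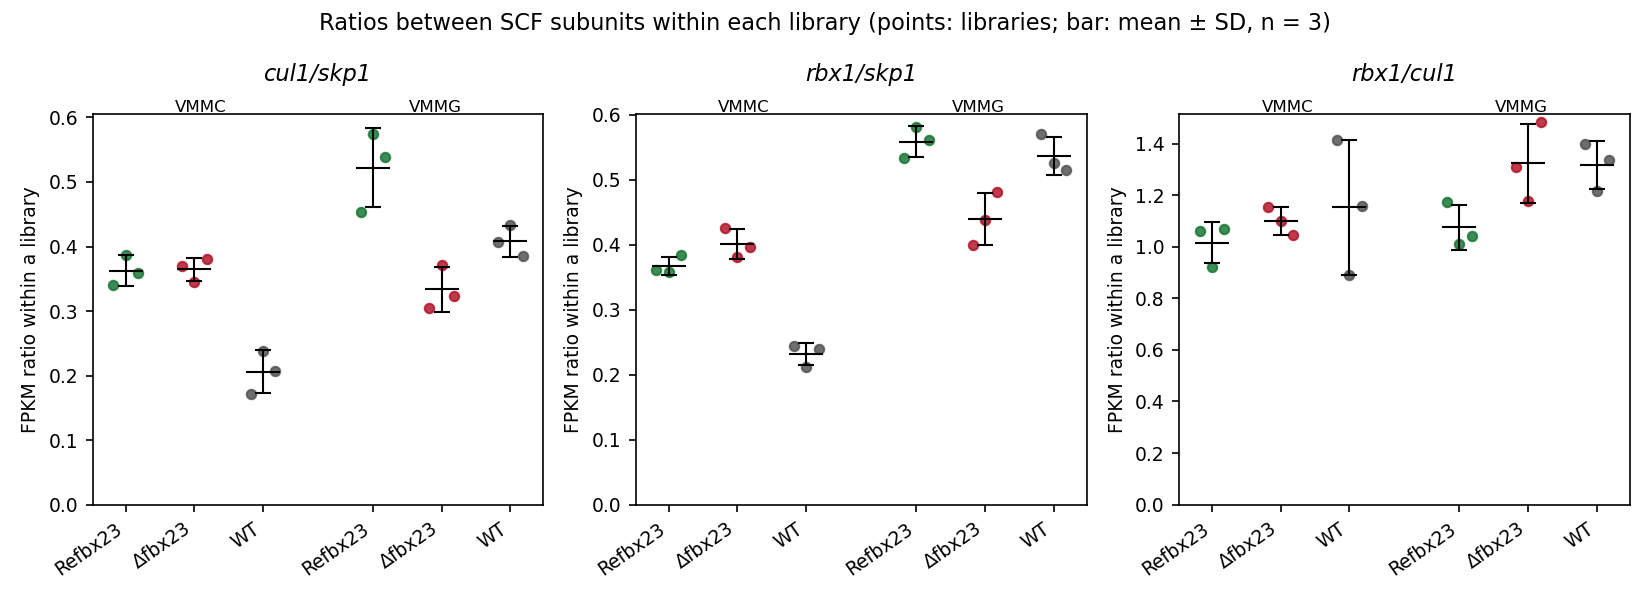
Ratio of the FPKM of cul1 to skp1, rbx1 to skp1 and rbx1 to cul1 within each library (vertical axis, no unit) in Refbx23, Δfbx23 and the WT in VMMC (left) and VMMG (right); points are libraries and bars the mean ± SD of 3 libraries. In VMMC the ratio of cul1 to skp1 is 0.363 in Refbx23 and 0.365 in Δfbx23, against 0.206 in the WT.

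The wider ubiquitin pathway was described by 15 further genes whose proteins are annotated in the study's purification tables as acting with ubiquitin, the ubiquitin-like modifier NEDD8, the COP9 signalosome or the proteasome. NEDD8 is attached to cullins and activates SCF complexes, and the COP9 signalosome removes it again. In VMMC, 7 of 15 passed for Refbx23 against the WT, 4 higher and 3 lower, and 8 of 15 for Δfbx23 against the WT, 5 higher and 3 lower, beside 61.8% and 50.7% of all genes. None was called changed. The 3 proteasome genes of the list, rpn8 (PDE_02366), rpt4 (PDE_02547) and rpt6 (PDE_05790), passed as higher in both comparisons, with log2 fold changes of 0.23 to 0.28 in Refbx23 and 0.27 to 0.36 in Δfbx23. These 3 genes were named after their values were seen. Of all genes that passed, 49.4% were higher in Refbx23 and 44.4% in Δfbx23. The gene for ubiquitin fused to the ribosomal protein L40 (PDE_02848) was also higher, by 0.62 in Refbx23 and 0.66 in Δfbx23 on the log2 scale (limma adjusted p = 0.00183 and 0.00334). The signalosome gene csnG (PDE_08607) was lower, with log2 fold changes of -0.38 and -0.26 in these strains. The median of the list was -0.05 in Refbx23 and -0.04 in Δfbx23, beside -0.01 and -0.03 for all genes tested.

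In VMMG, 4 of 15 passed for Refbx23 against the WT, 3 higher and 1 lower, and 2 of 15 for Δfbx23 against the WT, 1 higher and 1 lower, beside 45.2% and 25.3% of all genes. The signalosome gene csnC (PDE_04062) fell in Δfbx23 in VMMG, with a log2 fold change of -0.63 (limma adjusted p = 0.0222) and 21.9, 17.0 and 19.7 FPKM in Δfbx23 against 33.2, 33.3 and 26.1 FPKM in the WT. Between Refbx23 and Δfbx23 in VMMG, 10 of 15 passed, 7 higher and 3 lower, beside 57.4% of all genes, among them csnC with a log2 fold change of 0.83 (limma adjusted p = 0.000805). In VMMC the same comparison gave 0 of 14 by limma, with 1 at an unadjusted p under 0.05. Between the media, 7 of 15 rose and 1 fell in Δfbx23, 5 rose and 3 fell in Refbx23, and 6 rose and 5 fell in the WT, beside 70.2%, 62% and 72.2% of all genes that passed. The NEDD8 protease gene nep2 (PDE_00339) was called changed in Δfbx23, with means of 48.7 FPKM in VMMC and 21.5 FPKM in VMMG, and in the WT, with 52.6 FPKM in VMMC and 24.97 FPKM in VMMG.

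A ligase gene of the list differed between the strains in both media. The RING ligase gene annotated as RHA2B (PDE_04928), named for a plant protein, was called changed in Δfbx23 against the WT in VMMG, with 144, 101 and 99.2 FPKM in Δfbx23 and 40.3, 41.0 and 32.1 FPKM in the WT. Its log2 fold change there was 1.57 (limma adjusted p = 0.00218, SE 0.18). In Refbx23 in VMMG it was at 61.7, 59.4 and 52.2 FPKM, also higher than in the WT, with a log2 fold change of 0.60 (limma adjusted p = 0.00991). In VMMC it was lower in both mutant strains, with 222, 202 and 232 FPKM in Refbx23, 188, 207 and 180.4 FPKM in Δfbx23, and 361, 336 and 375 FPKM in the WT. The groups did not overlap with the WT in either strain. The log2 fold change in VMMC was -0.71 in Refbx23 (limma adjusted p = 0.000115) and -0.90 in Δfbx23 (limma adjusted p = 0.000122). Between the media, RHA2B rose in the WT by 3.21 on the log2 scale (limma adjusted p = 1.56e-06, SE 0.12), and the interactions were -1.31 for Refbx23 and -2.46 for Δfbx23 against the WT (limma adjusted p = 3.4e-05 and 6.59e-06).

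**Figure D5:**
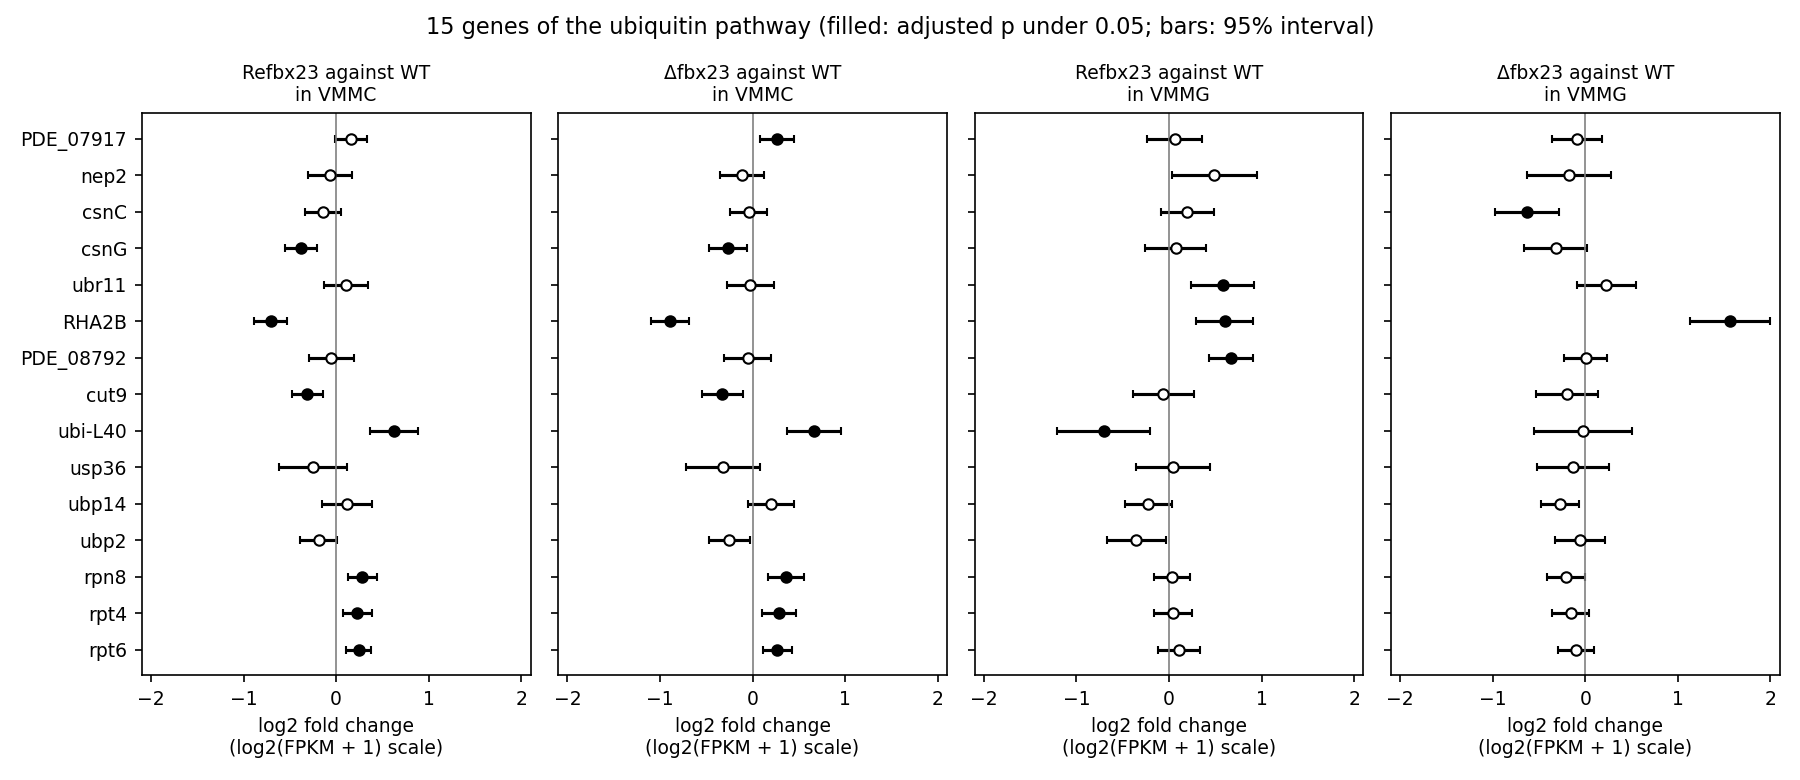
Log2 fold changes on the log2(FPKM + 1) scale (horizontal axis) of the 15 pathway genes for Refbx23 and Δfbx23 against the WT in VMMC and VMMG; filled points passed at an adjusted p under 0.05 and bars are 95% intervals. The 3 proteasome genes at the bottom, named after their values were seen, pass as higher in VMMC in both mutant strains. In each of these comparisons 3 of the 15 genes pass as lower. RHA2B reaches 1.57 in Δfbx23 in VMMG and lies below 0 in VMMC.

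The partner list held 9 genes, ace1, whose product was a bait of the study, and the genes of proteins brought down with Ace1 or Fbx23. For Δfbx23 against the WT, 4 of 9 passed in VMMC, 2 higher and 2 lower, and 1 of 9 in VMMG, beside 50.7% and 25.3% of all genes, and none was called changed. For Refbx23 against the WT, 4 of 9 passed in VMMC, 2 higher and 2 lower, and 3 of 9 in VMMG, beside 61.8% and 45.2% of all genes. For Refbx23 against Δfbx23, 2 passed as higher in VMMC, and 1 as higher and 3 as lower in VMMG. The shares of all genes were 15.1% and 57.4%. The log2 fold change of ace1 in Δfbx23 against the WT was -0.24 in VMMC and -0.55 in VMMG (limma adjusted p = 0.150 and 0.111). For Refbx23 against Δfbx23 it was 0.33 in VMMC and 0.06 in VMMG (limma adjusted p = 0.0342 and 0.600). The Zn2Cys6 transcription factor gene PDE_04678 was called changed in VMMG, with 6.73, 11.8 and 8.70 FPKM in Refbx23, 2.15, 1.90 and 2.73 FPKM in Δfbx23, and 2.67, 2.81 and 3.15 FPKM in the WT. Its log2 fold change was 1.61 for Refbx23 against Δfbx23 (limma adjusted p = 0.000864) and 1.35 for Refbx23 against the WT (limma adjusted p = 0.00256), on a scale that understates changes at such low levels. In VMMC it was lower than the WT in both strains, with 5.84 FPKM in Refbx23, 6.74 FPKM in Δfbx23 and 9.31 FPKM in the WT on average, and log2 fold changes of -0.59 and -0.42. The gene of pyruvate carboxylase, pyc2 (PDE_05651), had means of 243 FPKM in Refbx23, 506 FPKM in Δfbx23 and 286 FPKM in the WT in VMMG. It was called changed for Refbx23 against Δfbx23, with a log2 fold change of -1.01 (limma adjusted p = 0.00547). The Δfbx23 libraries were at 689, 427 and 403 FPKM, and those of Refbx23 at 229, 253 and 249 FPKM. These groups did not overlap, but the size of the change leaned on Δfbx23 replicate 1. Whether 2-fold would be reached without that library was not tested.

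The loci numbered next to fbx23 were examined because a gene replacement can disturb what lies beside it. Of the 60 locus numbers within 30 of PDE_08467 on either side, 53 were in the table, and no positions could be given for them. The directly preceding PDE_08466 was read at 81.1 FPKM in Δfbx23 and 77.2 FPKM in the WT in VMMG on average. The next locus, PDE_08468, was at 16.7, 22.5 and 21.5 FPKM in Δfbx23, against 4.66, 5.95 and 3.02 FPKM in the WT in VMMG, and the groups did not overlap. Its log2 fold change there was 1.96 (limma adjusted p = 0.00226). In Refbx23 in VMMG it was at 5.68, 6.32 and 7.52 FPKM. In VMMC the means of PDE_08468 were 12.6 FPKM in Refbx23, 14.7 FPKM in Δfbx23 and 28.6 FPKM in the WT, so that the sign for Δfbx23 against the WT was not the same in the other medium. Between Δfbx23 and the WT, 13 of 43 tested loci of the window passed in VMMG, 5 higher and 8 lower, and 28 of 44 in VMMC, 6 higher and 22 lower. The shares were 25.3% and 50.7% for all genes, with 14.3% and 28.2% passing as lower. For Refbx23 against the WT in VMMC, 9 of 43 tested loci passed as higher and 19 as lower, beside 31.3% of all genes as lower. PDE_08478 was at a mean of 27.6 FPKM in Δfbx23 and listed at 0 in the WT in VMMG, and PDE_08494 was at 0.473 FPKM in Δfbx23 and 20.5 FPKM in the WT. In Refbx23 in VMMG, PDE_08478 was listed at 0 and PDE_08494 was at 2.47 FPKM on average. In VMMC, PDE_08440 was listed at 0 in all libraries of both mutant strains, against 116, 107 and 168 FPKM in the WT, the largest fitted log2 difference of the window in that medium. For Δfbx23 against the WT, the median log2 fold change of the window was -0.06 in VMMG and -0.32 in VMMC, beside -0.07 and -0.03 for all genes tested. For Refbx23 against the WT in VMMC it was -0.24, beside -0.01 for all genes tested.

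The genes whose patterns were most like those of the members were named by the highest Pearson's r on log2(FPKM + 1) over the 18 libraries. These libraries share their 6 groups, and the values are a description only. For skp1 they were PDE_05942 (r = 0.989) and PDE_06600 (r = 0.988). PDE_05942 had means of 24.0 FPKM in Refbx23, 24.3 FPKM in Δfbx23 and 79.4 FPKM in the WT in VMMC, and 8.46, 4.96 and 4.43 FPKM in VMMG in the same strain order. For cul1 they were PDE_06360 (r = 0.982) and PDE_03640 (r = 0.981). PDE_06360 repeated its order of the strains in VMMG, with 43.3 FPKM in Refbx23, 16.6 FPKM in Δfbx23 and 22.3 FPKM in the WT. For rbx1 they were PDE_07195 (r = 0.917) and PDE_01358 (r = 0.913), and for bre1 PDE_06027 and PDE_07348 (r = 0.958 each). For fbx23 the highest were PDE_07722 (r = 0.928) and PDE_00151 (r = 0.905), values that rest on the 6 libraries at 0. Over the 12 libraries of Refbx23 and the WT alone they were other genes, PDE_07308 (r = 0.913) and PDE_03528 (r = 0.906). No likeness is given for mub1, whose values are too near 0.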

How the data were processed

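The deposited table lists FPKM per gene and library, which the authors computed from reads mapped to the P. oxalicum genome, with 2 decimals and without pooling. The aligner and the genome version are not given in the sources used here. The labels describe tag-based libraries and a modified Mendal's medium with 18 h of growth, whereas the paper describes RNA-Seq in Vogel's medium with cellulose alone and a longer culture. Which holds could not be settled, and FPKM of tags would not be corrected for length in the same way. Library depth is unknown, since no counts were at hand. Relative depth, read from the smallest steps of low values over 30 to 45 genes per library, was 0.966 to 1.07. That reading kept only values close to the smallest of each gene, so a clearly different depth could not have shown. It does not tell whether the libraries were of equal depth.

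Libraries were grouped from their labels. The log2(FPKM + 1) values were fitted in R 4.3.3 by limma 3.58.1 with its trend option. Genes averaging 1 FPKM or more over the libraries in the fit were kept, and p-values were adjusted by Benjamini-Hochberg over all of them. Each pair of groups was fitted on its own 6 libraries, and each interaction of strain and medium on 12. Fold changes on this scale understate the changes of low genes. Standard errors and 95% intervals are the moderated ones. Exact permutation tests were two-sided. The fit was tested on simulated data with 200 changed genes. Alternatives were a pseudocount of 0.1, no filter, a filter at 5 FPKM, a replicate block, 1 fit of all 18 libraries, scaling of libraries by median ratios, a 2-fold threshold for counts, no intensity trend, library weights, and each library left out. Tables and figures used Python 3.11.15, pandas 2.3.3, numpy 2.4.6, scipy 1.17.1 and matplotlib 3.10.9.

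The members and gene lists were chosen with earlier results of these data known. All members are named. Of each list, up to 4 genes per comparison were to be named, those of lowest adjusted p among genes called changed. This rule was not followed throughout, and partner and neighbour genes changed between the media were left out. In the WT, 2 partner genes were called changed as higher in VMMC and 2 as lower, beside 41.2% of all genes. Among these, PDE_05998 had a log2 fold change of 5.38 (limma adjusted p = 1.56e-07) and PDE_09448 of -1.76 (limma adjusted p = 0.000391). The proteasome genes, ubiquitin-L40, csnC, csnG, PDE_08466 and PDE_00836 were named after their values were seen. The values of ace1 were likewise given after they were seen. The reference at hand covers another strain with other locus tags, and 0 of the members matched it, so positions, lengths and sequences are not given.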

Additional observations from a re-analysis of the deposited data

Results flagged for a closer look

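The difference in skp1 between Δfbx23 and the WT depended on the medium by the test of the interaction. Its value was -0.63 on the log2 scale (VMMC minus VMMG, limma adjusted p = 0.00291, n = 3 per group). The same held for Refbx23 against the WT, with -1.04 (limma adjusted p = 9.6e-05). All 3 VMMC libraries of each mutant strain were below those of the WT. The strain differences in cul1 also depended on the medium, with 0.49 for Δfbx23 against the WT (limma adjusted p = 0.0117) and -0.56 for Refbx23 against the WT (limma adjusted p = 0.00209), in opposite directions. Of all genes tested, 42.8% of 8062 passed the interaction for Δfbx23 and 57% of 8072 that for Refbx23. Passing it does not set skp1 and cul1 apart from other genes. Groups of 3 libraries are too small for a test of single outlying libraries.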

How the results depend on the processing

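Of 740 values of the members under alternatives, 683 kept their direction and call, 14 lost the call, 27 gained it and 16 changed sign. The number of the 4 tested members that passed was 1 for Δfbx23 against the WT in VMMG. It was 0 with a 2-fold threshold as well, with median-ratio scaling, with the replicate block or without the trend, 2 with all 18 libraries in 1 fit, and 0 to 1 with 1 library left out. For Δfbx23 against the WT in VMMC it was 1, and 0 with the 2-fold threshold. For Refbx23 against the WT it was 2 in VMMG, and 0 with the 2-fold threshold, 4 with all 18 libraries or library weights, 1 with the replicate block and 1 to 2 with 1 library left out. In VMMC it was 1, and 0 with the 2-fold threshold and 1 to 2 with 1 library left out. With the 2-fold threshold, the counts fell to 1 for Refbx23 against Δfbx23 in VMMG, and for VMMC against VMMG to 1 in Δfbx23, 0 in Refbx23 and 1 in the WT. The interactions then gave 0 for Δfbx23 and 1 for Refbx23. All 18 libraries in 1 fit gave 2 for VMMC against VMMG in Refbx23, and library weights gave 4 for the interaction of Refbx23. For that interaction the count of all genes that passed was 4605, and 5775 with library weights. The counts of members were therefore not read as a result about the members. The causes were not tested.

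The signs that changed were all of values near 0. They were those of bre1 for Δfbx23 against the WT in VMMG (0.0546 with median-ratio scaling, 0.0460 with library weights, -0.0602 to 0.0508 with 1 library left out) and cul1 for VMMC against VMMG in Refbx23 (-0.0619 with scaling, -0.0210 with weights, -0.0269 to 0.0397 with 1 library left out). With 1 library left out, in VMMC, rbx1 ran from -0.0867 to 0.16 for Δfbx23 and from -0.23 to 0.0197 for Refbx23 against the WT, and fbx23 from -0.10 to 0.0260 and bre1 from -0.0305 to 0.0612 for Refbx23 against the WT. For Refbx23 against Δfbx23 in VMMC, skp1 ran from -0.0498 to 0.0300 and bre1 from -0.0887 to 0.00307.

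No clear pairing of the libraries by replicate number was seen. Deviations of same-numbered libraries from their group means correlated with r from -0.21 to 0.26, and in 0 of 9 comparisons were all over 0.1. With so few libraries per group, this cannot show whether same-numbered libraries were handled together. With the replicate block, 46 of 49 values kept their call, the exceptions being cul1 in Δfbx23 (adjusted p = 0.105) and rbx1 in Refbx23 (adjusted p = 0.0627) against the WT in VMMG, and the interaction of rbx1 for Refbx23, which passed (adjusted p = 0.0276). The count of all genes that passed for Δfbx23 against the WT in VMMG was 1942. It was 1330 in the block, 3184 with all 18 libraries and 3158 with weights. With 1 library left out it ran from 994, without WT replicate 2, up to 2670. It was 1011 without Δfbx23 replicate 3, 1246 without Δfbx23 replicate 2 and 1271 without WT replicate 1. For Refbx23 against the WT in VMMG the count was 3527, and 5532 with weights. For Refbx23 against Δfbx23 in VMMC it was 1193, with 782 in the block, 586 with all 18 libraries, 1848 with weights, and with 1 library left out from 601 without Refbx23 replicate 1 to 1830 without Δfbx23 replicate 1. In that comparison 60.6% of the genes that passed were higher, and 50.3% with median-ratio scaling. Depth is unknown, which limits mub1 above all.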
